A study of Mus musculus with 8 samples.

Results

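The genes described here are the numbered Zfp genes, the zinc finger protein genes of the mouse whose symbol is Zfp followed only by digits, in group 2 innate lymphoid cells (ILC2s) of the lung. They were chosen by name and by abundance: of the 336 such symbols among the 23183 genes listed (Zfp36, an RNA-binding protein gene of another family, was left out), the 282 with at least 10 counts in every library were taken as members. The cells were ILC2s from the lungs of C57BL/6 mice (substrain C57BL/6 J in the methods) of both sexes, 6 to 10 weeks old, that had been given IL-33. The cells were enriched with magnetic beads and cultured with IL-2, IL-7 and IL-33 before RNA was taken. A group of 4 samples was exposed to 5 µM Yoda1, a chemical that opens the mechanosensitive calcium channel Piezo1, for 3 h, and a group of 4 samples to the vehicle, 0.1% DMSO. It is not stated in the labels or methods if samples of the same group were separate mice or separate cultures, so the p-values below measure only the spread between these samples.

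C2H2 zinc finger proteins bind DNA, and at times RNA, through a row of small folds that each hold a zinc ion between a pair of cysteines and a pair of histidines. Many of them, the KRAB zinc finger proteins, also carry a Krüppel-associated box, which recruits the scaffold Trim28 and through it the histone H3K9 methyltransferase Setdb1, and this machinery is known for silencing retroelements and guarding imprinted genes. KRAB zinc finger genes lie in large clusters of related copies, whereas the older zinc finger genes without the box include activators, chromatin adaptors and RNA-binding proteins.

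Library totals ran from 12438009 to 19534653 counts, and the scaling factors of the trimmed mean of M values (TMM) from 0.988 to 1.01. All 12 ILC2 markers had at least 10 counts in every library, and their summed level was 13580 to 14076 CPM (counts scaled to a common TMM-adjusted library total) with DMSO and 15446 to 15806 CPM with Yoda1. This list included the effector genes Il13, Il5 and Areg, and the paper reports that Yoda1 slightly raised Il13 and Il5 mRNA. The sum is therefore not a measure of ILC2 content alone. Markers of T cells were summed at 69.8 to 77.4 CPM with DMSO and at 75.1 to 84.7 CPM with Yoda1, and those of NK cells at 56.2 to 57.7 CPM and 59.6 to 65.1 CPM. The 4 epithelial and stromal markers were summed at 213 to 227 CPM with DMSO and at 218 to 223 CPM with Yoda1, with 2 of the 4 at 10 or more counts in every library and Sftpc at 3 or fewer in all. Of the 4 mast cell and basophil markers 2 reached 10 counts in every library, with sums of 3.55 to 5.18 CPM and 4.68 to 5.48 CPM, and of the 5 macrophage markers 1 did so, with sums of 3.32 to 3.91 CPM and 2.37 to 3.60 CPM. The B cell markers Ms4a1 and Pax5 and the macrophage markers Csf1r, Lyz2 and Marco had at most 3 counts in any library. The part of these differences in the results below was not tested, and in bulk RNA fewer cells of a type and less RNA per cell cannot be told apart.

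Of the 54 numbered Zfp genes that were not members, 11 had no count in any library and 24, these included, had at most 3 counts in any library. The threshold fell among weakly detected genes: Zfp781, just outside, had between 9 and 18 counts per library, and Zfp345 and Zfp383, just inside, had between 10 and 28 and between 10 and 32. Of the 54, 43 were not tested and 11 had enough counts to enter the test, of which edgeR called 0 (1 with an unadjusted p under 0.05, and 0 called by DESeq2 or limma-voom). Of the members, 280 were found by symbol in the GENCODE M21 annotation, 278 of them as protein-coding genes. Their coding sequences gave 272 genes with at least 1 C2H2 finger and 252 with at least 3, and the median was 10 fingers with a highest number of 33. A KRAB A box was found in 155 members and not in 118, while 5 gave an intermediate score and 4 had no coding sequence to score.

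The numbered Zfp genes were of low abundance as a class. Their mean count over the libraries ran from 19 to 4026 with a median of 223.4, against a median of 499.1 for the 11346 other genes with at least 10 counts in every library. All members together took between 0.657% and 0.690% of a library's counts, and this share averaged 0.676% ± 0.0142 in the DMSO group and 0.675% ± 0.0124 in the Yoda1 group (SD, n = 4 each), so it differed by far less than the spread between samples. On the level scale of CPM per kilobase of transcript, the highest members were Zfp706 at 373 CPM per kb and Zfp207 at 145 CPM per kb. Zfp91 at 39.4, Zfp622 at 35.1 and Zfp106 at 28.4 CPM per kb followed. This scale depends on the single transcript chosen for each gene, which was only 481 bases long for Zfp706 and 9085 for Zfp106. In CPM with DMSO, Zfp706 stood at 184 and Zfp106 at 255. The median member stood at 4.31 CPM per kb. The typical member was thus scarce beside a few widely expressed ones.

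Yoda1 moved few of these genes, and none by much. With edgeR's quasi-likelihood test fitted to all 12239 genes that had enough counts, and p-values adjusted over these by the method of Benjamini and Hochberg, 14 of the 282 members (4.96%) had an adjusted p under 0.05, where the share of all genes tested was 10.9%. Of these, 11 (3.9%) were higher with Yoda1, against 6.04% of all genes tested, and 3 (1.06%) were lower, against 4.84%. The split moved with the scaling, to 6 higher and 4 lower with library size only and to 5 higher and 6 lower with upper-quartile factors, and all of these counts were small. The shares of the members thus lay under those of all genes tested in both directions. An unadjusted p under 0.05 was found for 54 members (19.1%) and for 26.1% of the other genes with at least 10 counts in every library. Those other genes were more abundant, with a median of the mean counts of 499.1 against 223.4 for the members. The CPM values of the groups did not overlap for 18 members that were higher with Yoda1 (6.38%, background 8.45%) and for 9 that were lower (3.19%, background 7.05%).

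The log2 fold changes of the members were centred on 0. Their median was -0.0010, with an interquartile range from -0.10 to 0.09, and 140 members lay above 0 and 142 below. The largest decrease was -0.41 (Zfp704) and the largest increase 0.41 (Zfp940, SE 0.179, adjusted p = 0.150 by edgeR's test, named after its values were seen). No member changed by more than 0.5 on the log2 scale, whereas 239 of the other genes (2.11%) did. For 240 of the 282 members the whole 95% confidence interval of the fold change lay within ±0.5, so for the remaining 42 a change of that size was not excluded at this depth. The standard deviation of the fold changes was 0.150 across members and 0.181 across the other genes.

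**Figure D1:**
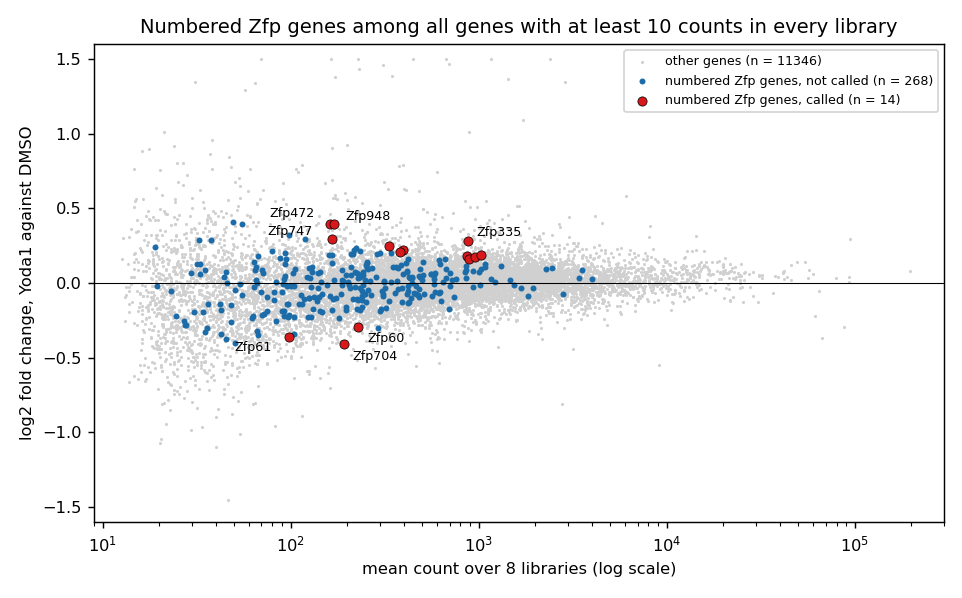
Log2 fold change of Yoda1 against DMSO for each gene, plotted against its mean count over the 8 libraries on a log scale, with the 282 numbered Zfp genes in colour over 11346 other genes in grey and the 14 called members in red. The members fill the middle of the cloud between -0.41 and 0.41, and 7 other genes beyond ±1.5 are drawn at the edge of the axis.

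Because small counts give wide fold changes, the members were set beside other genes in 4 classes of mean count, whose limits were the quartiles of the members (97.0, 223.4 and 431.8 counts). In the class of lowest abundance the median log2 fold change was -0.05 over 71 members and -0.10 over 1802 other genes. In the next class it was -0.02 over 70 members and -0.05 over 1501 others, and in the third it was 0.01 over 70 members and -0.02 over 1783 others. Among the most abundant it was 0.03 over 71 members and 0.01 over 5426 others. In each class the members stood slightly above the other genes, and in both sets the median rose with abundance. Averaged over the 4 classes the difference was 0.029 on the log2 scale, and with 10 classes it was 0.019. With 4 classes it was 0.011 without DMSO replicate 1 and 0.041 without DMSO replicate 3. The same score computed for single libraries varied by an SD of 0.026 within groups, and it ran from -0.057 to 0.012 with DMSO and from -0.011 to 0.034 with Yoda1, so the groups overlapped and the offset was of the size of the spread between libraries.

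Counted over both directions, the share of members called was below that of the other genes in each class of mean count. It was 0 of 71 by edgeR in the lowest class (5 with an unadjusted p under 0.05, and 0 called by DESeq2 or limma-voom), where 6.10% of the other genes were called. It was 7.14%, 5.71% and 7.04% in the next classes in order of abundance, against 9.13%, 9.14% and 14.1% of the other genes. By direction this held for decreases in each class, but the share called higher was 4.29% of members against 3.06% of others in the second class and 4.29% against 4.04% in the third. It was 0 against 1.83% in the lowest and 7.04% against 8.85% in the highest. The highest class was wide, from 432 to 4026 counts, and its median SE was 0.055 for members and 0.048 for the others. From low to high abundance, 7.04%, 22.9%, 21.4% and 25.4% of members had an unadjusted p under 0.05. For the other genes these shares were 19.1%, 22.8%, 23.3% and 29.8%, so in the second class they were about equal. None of these shares was tested against the other, since the members were chosen with results of these data known.

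**Figure D2:**
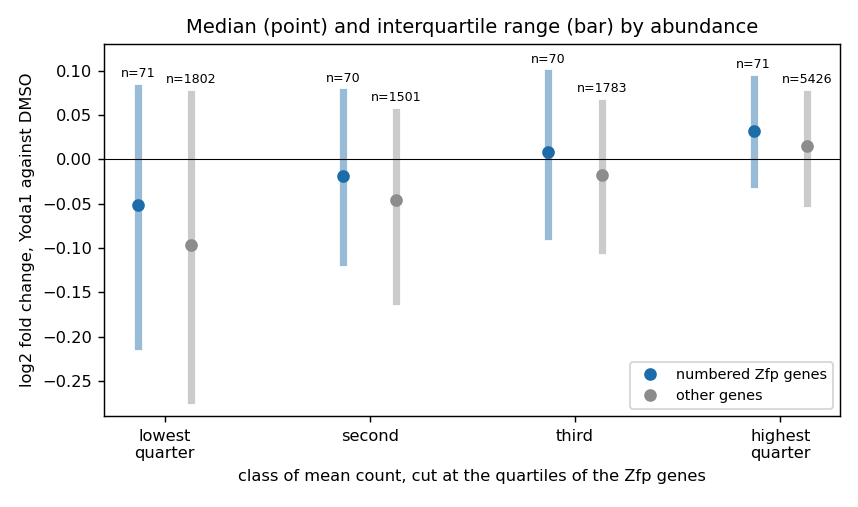
Median (points) and interquartile range (bars) of the log2 fold change of Yoda1 against DMSO for numbered Zfp genes (blue) and other genes (grey) in 4 classes of mean count cut at the quartiles of the Zfp genes. The medians rise from -0.05 to 0.03 for the Zfp genes and from -0.10 to 0.01 for the other genes, and the interquartile ranges overlap in every class.

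The member with the smallest adjusted p was Zfp335 (chr2:164891882-164911757, minus strand of mm10), which encodes a 13-finger protein without a KRAB box that is a component of an H3K4 methyltransferase complex and is known for its need in the maturation of T cells. Its level was 53.3, 45.3, 52.2 and 51.8 CPM in the 4 DMSO libraries and 60.7, 64.5, 59.9 and 60.5 CPM in the 4 Yoda1 libraries. Every Yoda1 library was thus above every DMSO library, and the mean went from 50.7 ± 3.62 to 61.4 ± 2.08 CPM (SD, n = 4 each). The log2 fold change was 0.28 (SE 0.0517, adjusted p = 0.00038 by edgeR's test), a 1.21-fold increase. Its exons overlap those of Pcif1 and of Zfp335os on the opposite strand. The kit was directional, but the strand setting of the counting is not given in the sources used here, so reads of these genes may not have been told apart.

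Of the others that rose, Zfp472 (chr17:32965814-32979233, plus strand) and Zfp664 (chr5:124862691-124902693, plus strand) remained called whichever library was left out. Zfp472, a KRAB gene with 12 fingers, stood at 9.82, 9.08, 7.99 and 9.23 CPM with DMSO and at 12.99, 10.89, 12.44 and 11.46 CPM with Yoda1, so the groups did not overlap. Its log2 fold change was 0.39 (SE 0.0958, adjusted p = 0.00654 by edgeR's test). Zfp664, a gene of 9 fingers without a KRAB box, stood at 62.4, 60.9, 58.3 and 65.2 CPM with DMSO and at 69.5, 73.3, 68.0 and 70.2 CPM with Yoda1. Again no value of a group reached into the other, and the log2 fold change was 0.19 (SE 0.0459, adjusted p = 0.00656 by edgeR's test).

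The promoters of Zfp335, Zfp472 and Zfp664 are shown because they are the genes that rose and remained called whichever library was left out. The sequences are those of RefSeq on GRCm38.p6, from 250 bases before to 50 bases after the start of the gene, on the strand of the gene, and capitals mark the cyclic AMP response element TGACGTCA, which CREB family proteins are known to bind and which was found in Zfp335 alone of the 3.
Zfp335 promoter (chr2:164911701-164912000, minus strand): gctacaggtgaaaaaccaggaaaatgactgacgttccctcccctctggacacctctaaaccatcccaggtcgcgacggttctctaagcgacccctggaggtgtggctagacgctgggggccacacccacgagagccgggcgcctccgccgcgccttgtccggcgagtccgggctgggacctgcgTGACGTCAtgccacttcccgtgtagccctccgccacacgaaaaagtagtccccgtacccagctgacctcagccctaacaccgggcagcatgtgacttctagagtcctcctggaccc
Zfp472 promoter (chr17:32965581-32965880, plus strand): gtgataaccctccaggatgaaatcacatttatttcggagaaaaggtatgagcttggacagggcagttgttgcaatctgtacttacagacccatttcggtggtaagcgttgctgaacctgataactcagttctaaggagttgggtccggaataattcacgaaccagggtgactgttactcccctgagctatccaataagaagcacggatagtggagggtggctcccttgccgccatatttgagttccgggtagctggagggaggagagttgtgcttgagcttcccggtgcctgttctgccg
Zfp664 promoter (chr5:124862455-124862754, plus strand): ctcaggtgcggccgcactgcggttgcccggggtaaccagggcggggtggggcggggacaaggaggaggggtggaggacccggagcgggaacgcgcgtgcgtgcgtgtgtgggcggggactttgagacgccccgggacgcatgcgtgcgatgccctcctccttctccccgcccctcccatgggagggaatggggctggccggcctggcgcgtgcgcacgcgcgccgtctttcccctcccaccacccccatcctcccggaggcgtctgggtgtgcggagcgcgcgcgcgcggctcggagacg

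Among the remaining genes that rose were activators with known targets. Zfp143, which binds promoters at a conserved site and takes part in chromatin looping, stood at 24.9, 21.1, 24.3 and 23.6 CPM with DMSO and at 29.3, 26.7, 26.7 and 26.9 CPM with Yoda1, a log2 fold change of 0.22 (SE 0.0667, adjusted p = 0.0275 by edgeR's test). Zfp384, a nuclear matrix-associated factor also known as a fusion partner in leukaemia, had 56.3, 53.6, 54.2 and 50.7 CPM with DMSO and 62.4, 59.9, 60.2 and 58.0 CPM with Yoda1 (log2 fold change 0.16). Both were higher in every Yoda1 library than in any DMSO library. Of the transcript sequence of Zfp384, 16.8% of the 50-base words were shared with the transcript of Gm11405, so part of its reads may have been divided between them.

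Of the members with less known roles, Zfp628 (16 fingers, no KRAB box) rose from 19.4 ± 0.89 CPM to 22.9 ± 1.54 CPM (mean and SD of 4 libraries). This was a log2 fold change of 0.24 (SE 0.0703, adjusted p = 0.0216 by edgeR's test). Its DMSO libraries held 20.4, 19.8, 18.3 and 19.4 CPM and its Yoda1 libraries 21.1, 22.8, 23.1 and 24.8 CPM. Zfp672 (13 fingers, no KRAB box) rose by 0.21 on the log2 scale, from 23.5, 22.8, 21.5 and 22.8 CPM with DMSO to 27.2, 26.2, 26.1 and 25.2 CPM with Yoda1. For both genes the groups did not overlap. Zfp747, a KRAB gene, rose by 0.30, from 8.82, 9.63, 9.14 and 10.9 CPM to 11.4, 11.1, 12.1 and 12.4 CPM, also without overlap. It shared 36.9% of its 50-base words with 9130019O22Rik, so how its reads were divided between these copies is uncertain.

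For the other 3 that passed the test the groups overlapped. Zfp948, a KRAB gene with the largest fitted increase among those called, had 8.07, 9.25, 11.2 and 9.53 CPM with DMSO and 15.01, 12.65, 12.74 and 10.28 CPM with Yoda1, a log2 fold change of 0.40 (SE 0.110, adjusted p = 0.0191 by edgeR's test). Its lowest Yoda1 library was therefore below its highest DMSO library. Zfp52, its KRAB neighbour on chromosome 17, had 52.7, 54.8, 63.1 and 58.9 CPM with DMSO and 66.0, 68.8, 61.1 and 62.3 CPM with Yoda1 (log2 fold change 0.17, adjusted p = 0.0362 by edgeR's test). Zfp236, the called gene with the most fingers, 29, had 48.6, 50.8, 53.2 and 57.1 CPM with DMSO and 58.7, 64.1, 53.4 and 60.3 CPM with Yoda1 (log2 fold change 0.18, adjusted p = 0.0335 by edgeR's test). A single Yoda1 library reached into the DMSO range of Zfp236, and 2 did so for Zfp52.

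Of the members, 3 fell. Zfp704 (chr3:9427020-9610085, minus strand), in whose protein only 1 C2H2 finger was found, had 13.1, 14.8, 15.3 and 12.4 CPM with DMSO and 10.97, 11.32, 8.62 and 10.90 CPM with Yoda1. The groups did not overlap, and the log2 fold change was -0.41 (SE 0.0958, adjusted p = 0.00493 by edgeR's test), that is 0.754 of the DMSO level. The KRAB gene Zfp61 (chr7:24291039-24301232, minus strand) had 7.07, 7.28, 7.35 and 6.20 CPM with DMSO and 5.89, 5.11, 4.72 and 6.01 CPM with Yoda1, a log2 fold change of -0.36 (SE 0.119, adjusted p = 0.0484 by edgeR's test). The KRAB gene Zfp60 (chr7:27731389-27753702, plus strand) had 13.4, 17.3, 16.8 and 16.7 CPM with DMSO and 12.4, 13.4, 13.1 and 13.3 CPM with Yoda1, a log2 fold change of -0.29 (SE 0.0862, adjusted p = 0.0241 by edgeR's test). For Zfp60 the lowest DMSO library and the highest Yoda1 library differed only beyond the third digit, and 7.41% of its 50-base words were shared with Zfp607b.

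Most of these calls did not hold in every fit that left out a library. Such fits have fewer samples, and the share of all genes tested that was called moved too, from 10.9%. It ran from 7.26% without Yoda1 replicate 4 to 12.1% without DMSO replicate 1. Zfp335, Zfp472, Zfp664 and Zfp704 remained called without any single library, their largest adjusted p being 0.00512, 0.0325, 0.0346 and 0.0296. The other 10 lost the call in at least 2 of the 8 fits that left out a library. Of the 14, 5 remained without DMSO replicate 2 and 5 without Yoda1 replicate 1, while 10, 8 and 10 remained without DMSO replicates 1, 3 and 4, and 10, 11 and 8 without Yoda1 replicates 2, 3 and 4. The direction of each of the 14 was the same in all of these fits.

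**Figure D3:**
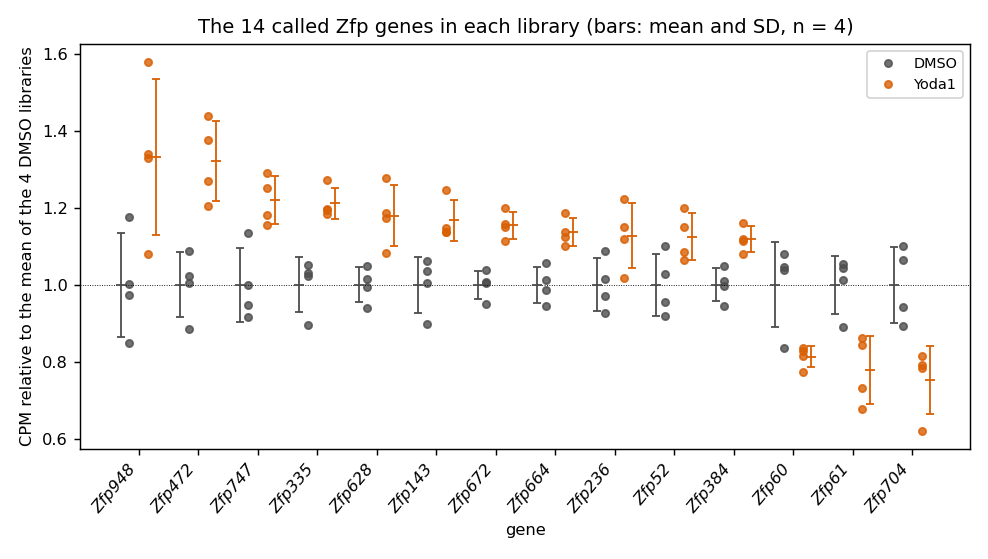
CPM of the 14 called numbered Zfp genes in each library, divided by the mean of the 4 DMSO libraries of that gene, with DMSO in grey, Yoda1 in orange, and bars for the mean and SD (n = 4 each). The 11 genes on the left rose and the 3 on the right fell, and points of the groups overlap for Zfp948, Zfp236 and Zfp52.

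Grouped by what is known of their proteins, the numbered Zfp genes that act on RNA, ribosomes or mitosis did not pass edgeR's test, 0 of 8 (background 10.9%, 1 with an unadjusted p under 0.05, and 0 called by DESeq2 or limma-voom). So few genes allow no reading against that background. The fold changes of this group ran from -0.08 to 0.08 with a median of -0.018. Zfp598, the ubiquitin ligase that senses collided ribosomes, stood at 65.0 ± 5.38 CPM with DMSO and 64.2 ± 4.05 CPM with Yoda1 (SD, n = 4 each). Zfp622 and Zfp593, which act late in the assembly of the large ribosomal subunit, differed by -0.01 and -0.03 on the log2 scale. Zfp207, which loads the checkpoint protein Bub3 onto kinetochores, had 221 ± 10.4 and 234 ± 9.08 CPM (adjusted p = 0.175 by edgeR's test), and its groups overlapped. The RNA-binding Zfp106, at 255 ± 15.7 and 259.8 ± 11.4 CPM the member with the highest CPM, had a 95% interval of the log2 fold change from -0.06 to 0.11. The 95% intervals of Zfp638 and of the duplex RNA-binding Zfp346 ran from -0.12 to 0.06 and from -0.15 to 0.10. Zfp326, a part of the complex that links elongation to splicing, had the lowest value, -0.08 (SE 0.0605).

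Of the members known for imprinting and for silencing of retroelements, 0 of 3 passed edgeR's test (background 10.9%, 1 with an unadjusted p under 0.05, and 0 called by DESeq2 or limma-voom). Zfp445, which guards imprinted regions, had 147, 150.2, 151 and 159.9 CPM with DMSO and 173, 168, 149 and 161 CPM with Yoda1, a log2 fold change of 0.10 with an adjusted p of 0.132 by edgeR's test. Its groups overlapped through Yoda1 replicate 3 alone, and without that library its adjusted p was 0.0299 by edgeR's test. Each other fit that left out a library gave no call. Their adjusted p by edgeR's test ran from 0.0867 without DMSO replicate 4 to 0.379 without Yoda1 replicate 1. Zfp809, which silences proviruses of murine leukaemia virus, stood at 19.9 ± 1.18 and 19.2 ± 0.87 CPM (log2 fold change -0.05). Zfp568, a repressor of a placental Igf2 transcript, stood at 15.7 ± 1.63 and 15.9 ± 0.09 CPM (log2 fold change 0.02). Zfp57 did not reach 10 counts in every library.

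Of the 14 members listed as activators or chromatin adaptors, 3 rose, namely Zfp335, Zfp143 and Zfp384 above, and none fell (background 6.04% and 4.84%). The median log2 fold change of the 14 was 0.06, against -0.0010 over all members, and 11 of them lay above 0. Their mean counts ran from 396 to 3406, however, and the fold change rose with abundance. In the highest class of mean count the median was 0.03 and 46 of 71 members lay above 0. There 7.04% of members and 8.85% of other genes were called higher. The other 11 genes of the list did not pass the test. Zfp131 (0.11) and Zfp609 (0.10), the latter a partner of the cohesin loader and Integrator, had groups that did not overlap but adjusted p-values of 0.132 and 0.257 by edgeR's test. With the called genes, 5 of the 14 were higher without overlap, as were 8.45% of all genes tested. In the highest class of mean count this share was 11.3% of members and 12.2% of other genes. Zfp410, known as a dedicated activator of Chd4, differed by 0.09 (SE 0.0618), and Chd4 itself stood at 578 CPM with DMSO and 575 CPM with Yoda1. Zfp281, a factor known from the control of pluripotency, differed by 0.08. Zfp644, a partner of the G9a and GLP methyltransferases, differed by 0.04, Zfp592 and Zfp687, which act with Zmynd8, by 0.03 and -0.02, Zfp91, a ubiquitin ligase of the NF-κB pathway, by 0.03, Zfp292 by 0.01 and Zfp148 by -0.03. Zfp217, which joins the CoREST and Lsd1 complex, had the lowest value, -0.09 (SE 0.0401). The list was written with earlier results of these data known, so its count is no independent evidence of a direction.

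The 2 listed members with known roles in lymphocytes were weakly expressed. Zfp318, needed for the alternative mRNA of IgD in B cells, stood at 8.31 ± 1.29 and 7.65 ± 0.95 CPM, and Zfp341, which activates Stat3 transcription, at 6.73 ± 0.83 and 6.61 ± 0.97 CPM. Their 95% intervals, -0.35 to 0.14 and -0.27 to 0.24 on the log2 scale, were wide, and neither passed edgeR's test (0 of 2, background 10.9%, 0 with an unadjusted p under 0.05, and 0 called by DESeq2 or limma-voom).

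**Figure D4:**
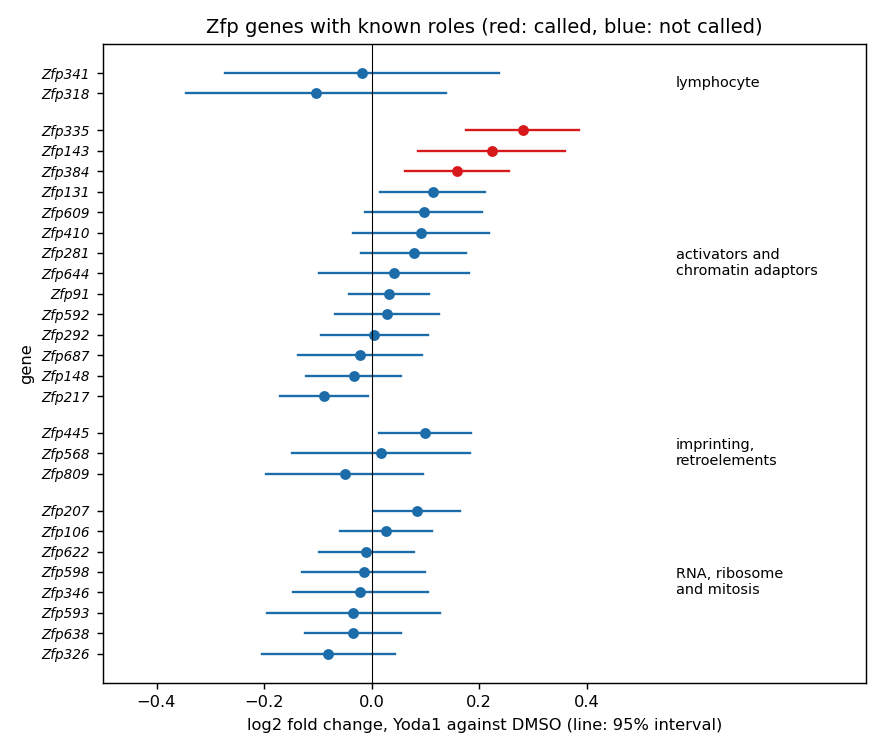
Log2 fold change of Yoda1 against DMSO (points) with its 95% interval (lines) for the numbered Zfp genes with known roles, grouped by role, with called genes in red. The 3 called genes are Zfp335, Zfp143 and Zfp384, all among the activators and chromatin adaptors, and the RNA, ribosome and mitosis group lies between -0.08 and 0.08.

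Members with and without a KRAB box differed slightly in their fold changes, and they also differed in abundance. The median log2 fold change was -0.02 over the 155 with the box, of which 4 rose (2.58%) and 2 fell (1.29%). It was 0.02 over the 118 without it, of which 7 rose (5.93%) and 1 fell (0.847%), where 6.04% of all genes tested rose and 4.84% fell. The difference of the medians, -0.041, was larger than the SD of 0.016 within groups of the same score computed per library. That score was 0.018 to 0.037 in the DMSO libraries and -0.031 to 0.015 in the Yoda1 libraries, so the groups did not overlap. Without DMSO replicate 1 the difference was -0.064, and without DMSO replicate 3 it was -0.026. However, the KRAB members were also scarcer, with a median of the mean counts of 166 against 354. Within the 4 classes of mean count, from low to high, the KRAB medians were -0.05, -0.03, 0.02 and 0.03 and the medians without the box -0.06, -0.01, -0.02 and 0.04, so the sign of the difference was not the same in every class.

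The other genes with a KRAB box that are not numbered Zfp genes gave like values, a median of -0.04 over 35 genes with 1 of them lower (2.86%, background 4.84%). Among other zinc finger families by symbol, 4 of 37 Zbtb genes were called (10.8%, median 0.02), as were 2 of 18 Zc3h genes (11.1%, median 0.03), shares close to the 10.9% of all genes tested, and 0 of 17 Zscan and Zkscan genes by edgeR (median 0.02, an unadjusted p under 0.05 in 2, and 0 called by DESeq2 or limma-voom). Of all other genes with at least 3 C2H2 fingers, 16 of 177 rose (9.04%, background 6.04%) and 3 fell (1.69%, background 4.84%).

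The partners through which KRAB proteins repress changed little. Of 23 corepressor and heterochromatin genes, 1 rose and 2 fell (background 6.04% and 4.84%), and the median log2 fold change was -0.014. Trim28, the scaffold that binds the KRAB box, had 211, 225, 207 and 194 CPM with DMSO and 205, 226, 227 and 216 CPM with Yoda1, and it did not pass the test (log2 fold change 0.06, SE 0.0423, adjusted p = 0.364 by edgeR's test). Setdb1, the methyltransferase, stood at 71.8 ± 2.37 and 68.7 ± 2.38 CPM (log2 fold change -0.06, adjusted p = 0.420 by edgeR's test). Both ranges overlapped between the groups. Cbx3, the heterochromatin protein HP1γ, fell from 169 ± 3.57 to 156 ± 4.57 CPM (log2 fold change -0.12, adjusted p = 0.0354 by edgeR's test). Uhrf1, which brings Dnmt1 to replicated DNA, fell from 89.95 ± 3.34 to 80.9 ± 1.99 CPM (log2 fold change -0.15, adjusted p = 0.0161 by edgeR's test). Dnmt3a, a de novo DNA methyltransferase, rose from 125 ± 4.43 to 136 ± 4.10 CPM (log2 fold change 0.13, adjusted p = 0.0278 by edgeR's test). These genes did not overlap between the groups, but Cbx3, Uhrf1 and Dnmt3a lost their calls in 5, 2 and 5 of the 8 fits that left out a library, DMSO replicate 2 and Yoda1 replicate 1 for each of them. Of the 23 genes, 2 were higher and 2 lower without overlap (8.70% each), near the 8.45% and 7.05% of all genes tested. Cbx3 also lost it with the replicate block (adjusted p = 0.0775 by edgeR's test), and Dnmt3a with the replicate block, library size only and upper-quartile factors (adjusted p = 0.0700, 0.0675 and 0.0942 by edgeR's test).

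As numbered Zfp genes are known to sit side by side, members within 1 Mb of each other were joined, which gave 14 groups of at least 5 genes and 132 members in all. The group medians ran from -0.17 to 0.05, and 6 of 14 lay above 0. The largest group, 19 genes on chromosome 17 (chr17:21008903-23564238), 18 of them with a KRAB box, had 14 genes above 0 and a median of 0.05. Over all members 49.6% lay above 0. Of the 19 genes 2 were called higher, Zfp52 and Zfp948, and none lower (background 6.04% and 4.84%), too few to read against that background. Beside them Zfp51 (0.20, adjusted p = 0.0957 by edgeR's test) and Zfp53 (0.16, adjusted p = 0.0555 by edgeR's test) were the next in line. The 2 other genes of the same stretch had a median of -0.21, and 1 of them was called lower. The per-library medians of these 19 genes overlapped between the groups, from -0.05 to 0.04 with DMSO and from 0.01 to 0.04 with Yoda1. In the KRAB cluster of chromosome 13 (chr13:67038596-67827002), 0 of 16 genes passed edgeR's test (background 10.9%, 1 with an unadjusted p under 0.05, and 0 called by DESeq2 or limma-voom), and 8 lay above 0.

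A group of 10 genes on chromosome 7 (chr7:24081924-25227507) stood lowest, with 9 genes below 0 and a median of -0.17. Zfp61 passed the test (1 of 10, background 10.9%). Zfp109 (-0.37, SE 0.208), Zfp94 (-0.35, SE 0.153) and Zfp111 (-0.26, SE 0.226) had values of a like size but larger errors. They were scarce, at 3.23, 4.85 and 1.85 CPM with DMSO. In the lowest class of mean count, 44 of 71 members lay below 0 wherever they sat. The 15 other genes of the same stretch had a median of -0.01 and 2 of them were called higher (background 6.04%). Per library, the median of the 10 genes after centring each gene was 0.02, 0.13, 0.13 and -0.02 with DMSO and -0.10, -0.13, -0.07 and 0.02 with Yoda1, so Yoda1 replicate 4 lay within the DMSO range. Without that library the median was -0.26, and without Yoda1 replicate 2 it was -0.09. Both groups were singled out after their values were seen.

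**Figure D5:**
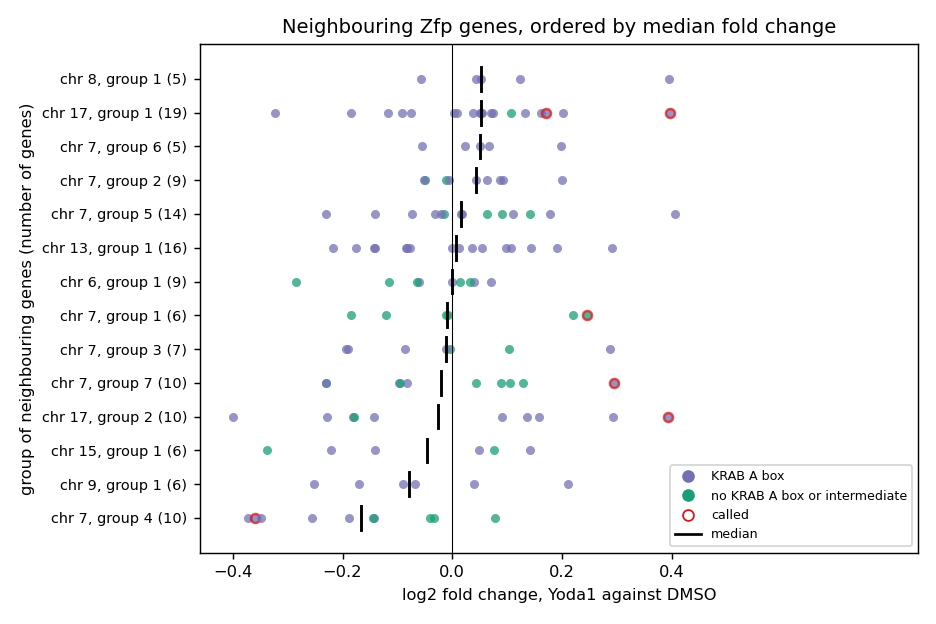
Log2 fold change of Yoda1 against DMSO for the members of the 14 groups of neighbouring numbered Zfp genes, ordered by their median (black bars), with KRAB genes in purple, others in green and called genes ringed in red. The medians lie between -0.17 and 0.05, and the fold changes spread widely around 0 within nearly every group.

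Rank correlations of the fold change with gene structure were close to 0. The members had a median transcript length of 3338 bases (2891 for the other genes), a median GC content of 45.8% (50.5% for the other genes) and a median of 5 exons (9 for the other genes). Across the 278 coding members, Spearman's rho of the fold change was -0.024 with transcript length, -0.0082 with GC content, 0.049 with the number of fingers and -0.055 with the number of exons. With the log2 mean count, rho was 0.246 across the 282 members and 0.237 across the other genes. These correlations are across genes of the same libraries, which are not independent replicates. Members with at most 5% of their 50-base words shared with other genes, 222 in number, had a median of -0.0052 and 11 calls (4.95%), and the 56 above that share had a median of 0.01 and 3 calls (5.36%), against 10.9% of all genes tested.

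A promoter sequence was matched for 235 of the 282 members, 12 of the 14 called ones among them. Their median GC content was 55.0%, against 61.3% over 8671 promoters of the other genes. Motifs were searched as exact letters on both strands. The cyclic AMP response element TGACGTCA stood in 2.98% of the members' promoters and in 3.46% of those of the other genes, the Egr site GCGTGGGCG in 0.426% and 1.33%, and the Ets site CCGGAAG in 20.9% and 19.4%. The word ACTACAATT, a core of the site that Zfp143 itself is known to bind, stood in 8 of the members' promoters (3.40%), in 0.773% of those of the other genes and in 0.433% of all 27025 promoters of the table.

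The 8 sites are shown because this word was more frequent in promoters of numbered Zfp genes than in those of other genes, and because Zfp143 was itself among the called members. Each line gives 30 bases from 4 bases before the word, where the promoter reaches that far, on the strand that carries it (RefSeq, GRCm38.p6), with the word in capitals.
Zfp1 (chr8:111643403-111643432, minus strand): taggACTACAATTcccataatgcctctgag
Zfp58 (chr13:67500538-67500567, plus strand): ccagACTACAATTcccacaagtctgtgcga
Zfp93 (chr7:24270332-24270361, minus strand): tggaACTACAATTcccagaattcctcagtg
Zfp111 (chr7:24208370-24208399, minus strand): acttACTACAATTgtctttcatgccatttt
Zfp128 (chr7:12881148-12881177, minus strand): tgagACTACAATTcccagaaggccacgcgc
Zfp180 (chr7:24081860-24081889, minus strand): tggaACTACAATTcccagaactctcagcgg
Zfp692 (chr11:58307017-58307046, plus strand): gctaACTACAATTcccggcaggctttgcac
Zfp933 (chr4:147848425-147848454, minus strand): aagaACTACAATTcccagcattccaggaac

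In 6 of the 8 sites the word was followed by CCCA, so the likeness went beyond the letters searched. In 7 of the 8 the word lay within 61 bases before the start of the gene, the exception being Zfp111 with 246 bases. EdgeR called 0 of these 8 genes (background 10.9%, 1, Zfp1, with an unadjusted p under 0.05, and 0 called by DESeq2 or limma-voom). Their fold changes ran from -0.26 to 0.29 with a median of -0.11, and 1 of the 8, Zfp128, lay above 0. Some of these genes were scarce, such as Zfp93 and Zfp111 at 5.09 and 1.85 CPM with DMSO. Of all members in the lowest class of mean count, 44 of 71 lay below 0. Zfp1 had 20.4 CPM with DMSO and 18.03 CPM with Yoda1 (log2 fold change -0.19, SE 0.0743, adjusted p = 0.106 by edgeR's test). A match is a description of the letters and shows no binding, and 3 of these genes, Zfp93, Zfp111 and Zfp180, belong to the group on chromosome 7 above.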

How the data were processed

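The authors deposited, for each of the 8 libraries, raw read counts per gene symbol over 23183 genes. RNA was extracted with Trizol and libraries were made with a directional kit. TopHat and mm10 are named in the submitters' processing notes, and the methods describe read checks and trimming (FastQC, FASTX Trimmer), mapping with BBMap, and Cufflinks with Cuffdiff. The counter, the annotation, tool versions and the strand setting are not given in the sources used here. Reads shared by related copies may have been dropped or divided, which bears on KRAB genes.

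Genes passing edgeR's filterByExpr (minimum count 10, minimum total 15; 12239 genes) were fitted with edgeR 4.0.16 (R 4.3.3), using TMM scaling and the robust quasi-likelihood test over all 8 libraries, with Benjamini-Hochberg adjustment at 0.05 ("called"). SE is the absolute log2 fold change divided by the root of F. CPM are of the TMM-scaled library. Log2 CPM for per-library scores used a prior count of 2. Intervals cover counting and sample spread in the fit, and a floor was set at 3 counts. Samples of a group differed by more than sampling noise (chi-square per gene 2.03 to 6.94), so none looked like a copy of another. No library was left out of the main fit. Pairs with DMSO replicate 1 gave 4.53 to 6.94, the other DMSO pairs 2.90 to 3.69 and the Yoda1 pairs 2.03 to 4.56. The fit was first tested on simulated counts.

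Gene structure came from GENCODE M21 (GRCm38) coding sequences. A KRAB A box was scored over 29 positions (present from 18, absent up to 12), with limits set after the scores, but not the fold changes, were seen. Shared sequence was measured in words of 50 bases. The members and gene lists were chosen with earlier results of these data known. Genes named are those called, the 3 with the highest mean CPM, members of the role lists, and called corepressors with Trim28 and Setdb1. The neighbour groups, the motifs and genes named with them were added after values were seen. Alternatives were library size only, upper-quartile factors, DESeq2 1.42.0, limma-voom (limma 3.58.1), no filter, at least 10 counts in every library, members with a mean of at least 100 counts, a block of replicate numbers, and leaving out each library.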

Additional observations from a re-analysis of the deposited data

Results flagged for a closer look

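Among the 43 named genes, the 5 named corepressors included, each group of 4 libraries was examined for a library set apart from the rest by Dixon's 95% criterion. Of 86 groups, 9 held such a library, where chance gives about 4.3. Among called genes, Yoda1 replicate 1 stood above the rest for Zfp143 (29.3 CPM, next 26.9 CPM), Yoda1 replicate 2 stood above for Zfp335 (64.5 CPM, next 60.7 CPM), Yoda1 replicate 3 stood below for Zfp704 (8.62 CPM, next 10.9 CPM), and DMSO replicate 1 stood below for Zfp60 (13.4 CPM, next 16.7 CPM). Zfp335 and Zfp704 remained called without these libraries. Zfp60 also did so, and Zfp143 did not (adjusted p = 0.0987 by edgeR's test without Yoda1 replicate 1). Among the members that were not called, DMSO replicate 1 stood above the rest for Zfp622 (106 CPM, next 96.7 CPM) and below for Zfp609 (38.1 CPM, next 42.6 CPM) and Zfp292 (68.9 CPM, next 79.6 CPM). Yoda1 replicate 4 stood below for Zfp326 (27.6 CPM, next 30.1 CPM) and Yoda1 replicate 3 for Zfp592 (68.4 CPM, next 76.2 CPM). DMSO replicate 1 thus accounted for 4 of the 9.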

How the results depend on the processing

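Of the 14 calls, 4 held under every alternative and the direction of each held in all. The number called higher, 11, became 6 with library size only, 5 with upper-quartile factors, 7 with DESeq2 and 6 with the replicate block, and 4 to 12 with a library left out. The number called lower, 3, became 6 with upper-quartile factors and 1 to 5 with a library left out. All members called were 5 without Yoda1 replicate 1 and 6 without DMSO replicate 2. Upper-quartile factors moved the median of all genes from -0.0053 to -0.036 and that of the members to -0.032. The difference between members and other genes of the same abundance classes stayed between 0.011 and 0.041, and the KRAB difference between -0.064 and -0.026, both ends with a library left out. Of members not called, Zfp26 (log2 fold change -0.17, adjusted p = 0.0557 by edgeR's test) was called in 5 alternatives, Zfp53 and Zfp536 in 3 each, Zfp445 without Yoda1 replicate 3 and Zfp217 with upper-quartile factors, the first 3 named after their values were seen. No pairing by replicate number was seen: deviations of same-numbered samples correlated at 0.048, 0.071, -0.028 and 0.00023. Those of differently numbered samples correlated at -0.125 to 0.077. Such values cannot tell if same-numbered samples shared a mouse or culture. The replicate block left 8 members called, all among the 14. The cause of these changes was not tested. Depth limited the scarcest members: the 95% interval lay within ±0.5 for 38 of 71 in the class of lowest abundance and for 71 of 71 in the highest.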
